A study of Rattus norvegicus with 24 samples.

Results

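Skeletal muscle makes parts of its protein synthesis machinery from paralogous genes, 1 copy used in most tissues and the other largely in adult muscle. The 4 genes described here form 2 such pairs, the ribosomal proteins Rpl3 (ubiquitous) and Rpl3l (muscle-specific), and the elongation factors Eef1a1 (ubiquitous) and Eef1a2 (muscle-specific). They were chosen by gene symbol, 1 row each, and make up 4 of the 14243 rows of the RNA-seq table. RNA was measured in the tibialis anterior, the main ankle dorsiflexor of the shin, of aged male Fischer 344 rats (23 months). In the atrophy group, tetrodotoxin (TTX), a sodium channel blocker, silenced the left common peroneal nerve for 6-7 days (3 left limbs). In the recovery group the same silencing was followed by 9 days without TTX (3 left limbs), and in the repeated atrophy group a second TTX period of 5-6 days came after that recovery (3 left limbs). The control group pooled the untreated right limbs of these 9 animals, and 3 sham-operated animals without TTX, 1 for each time point, gave 3 left and 3 right limbs. TTX reached the nerve through tubing from an implanted pump, and the sham animals had the same surgery.

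Rpl3 and Rpl3l encode alternative versions of the same protein of the large ribosomal subunit, which lies close to the site of peptide bond formation. Rpl3l is expressed almost only in skeletal muscle and heart, where its level is known to rise as muscle matures, while Rpl3 is used by ribosomes of nearly all cells. Eef1a1 and Eef1a2 encode alternative versions of elongation factor 1A, the GTP-binding protein that brings aminoacyl-tRNA to the ribosome. Eef1a2 takes over from Eef1a1 in muscle and neurons after birth, and mice that lack Eef1a2 waste and lose motor neurons.

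In the rn7 coordinates of the file, Rpl3l lies at chr10:13753914-13764459 on the plus strand. Rpl3 lies at chr7:111622261-111627640, Eef1a2 at chr3:168265893-168275072 and Eef1a1 at chr8:79341562-79344785, all on the minus strand. Rpl3 and Eef1a1 are known to have processed pseudogene copies, and how reads shared with such copies were counted is not given in the sources used here. All 4 were abundant: by mean level over the 24 limbs Eef1a2 ranked 51, Eef1a1 65, Rpl3l 247 and Rpl3 415 among all rows. The 250 bases before each annotated start are shown because the genes of a pair differed in how their RNA moved between limbs. They are RefSeq promoters of the GRCr8 build, at chr10:14258196-14258445 (plus strand) for Rpl3l and, on the minus strand, at chr7:113507991-113508240 for Rpl3, chr3:188652634-188652883 for Eef1a2 and chr8:88225070-88225319 for Eef1a1. They are read 5′ to 3′ along the gene, and capitals mark TATATA, the E-box CANNTG, or GGGCGG on either strand.
Rpl3l: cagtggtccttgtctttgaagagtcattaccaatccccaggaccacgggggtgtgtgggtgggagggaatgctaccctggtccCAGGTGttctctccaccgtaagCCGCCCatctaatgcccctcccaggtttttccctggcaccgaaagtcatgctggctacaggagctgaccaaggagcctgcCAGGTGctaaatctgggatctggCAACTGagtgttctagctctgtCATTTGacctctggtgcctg
Rpl3: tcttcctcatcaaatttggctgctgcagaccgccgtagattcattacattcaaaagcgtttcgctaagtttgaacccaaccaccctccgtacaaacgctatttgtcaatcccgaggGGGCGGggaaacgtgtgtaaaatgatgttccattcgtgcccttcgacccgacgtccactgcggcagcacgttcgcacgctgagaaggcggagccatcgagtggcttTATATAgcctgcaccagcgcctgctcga
Eef1a2: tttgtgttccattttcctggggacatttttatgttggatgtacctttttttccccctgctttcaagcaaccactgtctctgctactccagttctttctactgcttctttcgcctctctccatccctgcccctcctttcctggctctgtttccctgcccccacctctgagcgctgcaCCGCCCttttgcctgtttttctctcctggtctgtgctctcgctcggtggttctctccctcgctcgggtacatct
Eef1a1: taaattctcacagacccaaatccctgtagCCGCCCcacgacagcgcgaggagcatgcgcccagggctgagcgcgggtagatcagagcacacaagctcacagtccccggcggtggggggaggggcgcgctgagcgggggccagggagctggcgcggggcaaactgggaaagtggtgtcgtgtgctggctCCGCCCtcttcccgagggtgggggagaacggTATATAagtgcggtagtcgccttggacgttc
Both ubiquitous genes held TATATA near the start, with its first base 28 bases before it in Rpl3 and 31 bases before it in Eef1a1, and neither muscle-specific gene held it. TATATA was present in the same window of 5.45% of 33469 rat promoters. Rpl3l held 4 E-boxes and the other genes held none, against at least 1 in 65.5% of promoters. GGGCGG occurred once in Rpl3l, Rpl3 and Eef1a2 and 2 times in Eef1a1, and 30.5% of promoters held it. The consensus of the muscle factor MEF2 was in none of the 4 windows and in 2.96% of promoters. These motifs were chosen with the sequences in view, and such a match describes letters, not a site in use.

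Values are CPM, read counts scaled so that each limb sums to 1000000 over the table. Depth, inferred from the value of 1 read among low genes, was 18.9 to 30.9 in units of 1000000 reads. Some limbs differed from the rest of their group or lay at its edge. The left limb of atrophy animal 2 lay within the control range in Rpl3l, Rpl3 and Eef1a2 and just above it in Eef1a1, the right limb of atrophy animal 3 had the lowest Rpl3l and the highest Rpl3 of the 9 control limbs, and both limbs of sham animal 3 had low muscle-specific and high ubiquitous paralogs. The tissue label held: the 9 skeletal muscle fibre markers, such as Acta1 and Myh4, were above 0 in every group. Their summed level was 196618 to 264822 CPM over the control limbs and 208848 to 222686 after recovery, but 83674 to 207883 in atrophy and 112067 to 152744 after the second silencing. The median log2 fold change of all genes against control was 0.22 in atrophy and 0.20 in repeated atrophy, so that each gene below is also given after rescaling the limbs with a trimmed mean, which brought that median to 0.00 and -0.01.

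**Figure D1:**
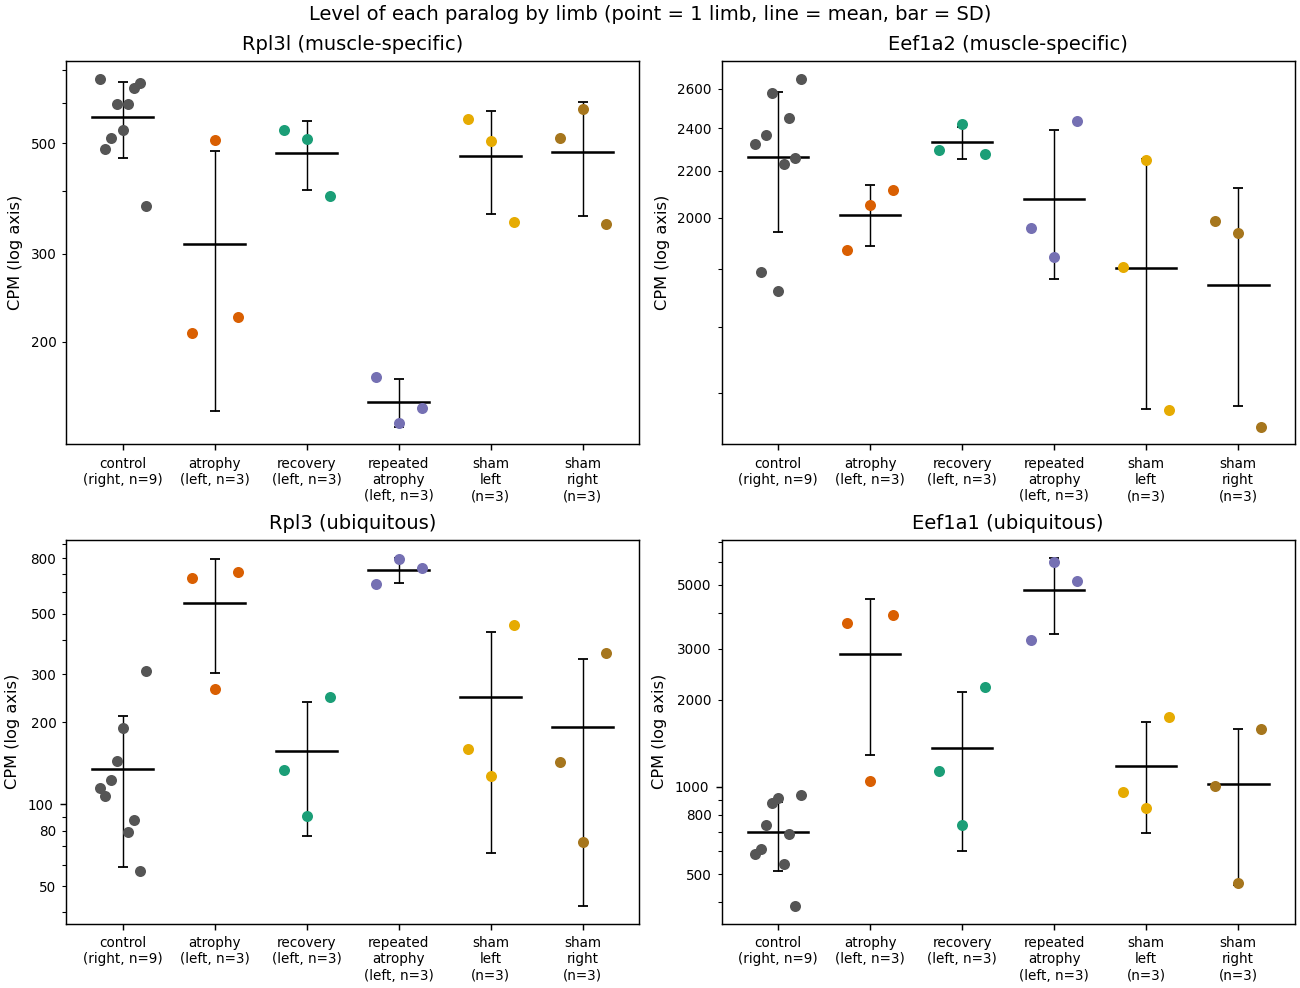
Level of each paralog in CPM on a log axis, 1 point per limb, with the mean (line) and SD (bar) of each group. Rpl3l fell to 138 to 170 CPM in the 3 repeated atrophy limbs, below all 9 control limbs, while Rpl3 and Eef1a1 were above every control limb there and Eef1a2 stayed within the control range.

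Rpl3l, the muscle-specific ribosomal protein, was lower in both silenced groups. In the 9 control limbs its lowest, median and highest levels were 374, 599 and 673 CPM. The 3 atrophy limbs held 209, 508 and 224 CPM, the 3 recovery limbs 532, 509 and 391 CPM, and the 3 repeated atrophy limbs 170, 138 and 147 CPM. A pair of low limbs and 1 limb within the control range thus made up the atrophy group, whereas all repeated atrophy limbs lay below all control limbs. The mean fell from 564 ± 97.4 (SD, n = 9) in control to 152 CPM after repeated atrophy, a 3.72-fold lower level, and was 1.80-fold lower after atrophy. In limma with Benjamini-Hochberg adjustment over 14031 rows the log2 fold change was -0.95 (SE 0.23, adjusted p = 0.010) in atrophy, -0.23 (adjusted p = 0.56) in recovery and -1.87 (SE 0.23, adjusted p = 4.3e-05) in repeated atrophy. Genes were called at a fold of 1.2 or more with an adjusted p no higher than 0.05, and 2.33% of rows were called lower in atrophy and 6.24% in repeated atrophy. The share of rows lower with no overlap between limbs was 0.52% in atrophy, where Rpl3l overlapped, and 3.87% in repeated atrophy, where it did not. After rescaling the log2 fold changes were -1.31 and -2.25, both called.

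Rpl3, the ubiquitous version of the same protein, moved the other way. Control limbs held 57.0, 115 and 308 CPM at the lowest, the median and the highest. Atrophy limbs held 676, 265 and 710 CPM, recovery limbs 134, 90.4 and 247 CPM, and repeated atrophy limbs 643, 798 and 738 CPM. The second atrophy limb and all recovery limbs lay within the control range, and the repeated atrophy limbs lay above it. The group mean was 4.09-fold higher than the control mean of 134 ± 75.7 (SD, n = 9) in atrophy and 5.40-fold higher in repeated atrophy. The log2 fold change was 2.06 (SE 0.40, adjusted p = 0.0064) in atrophy, 0.26 (adjusted p = 0.73) in recovery and 2.59 (SE 0.40, adjusted p = 2.2e-04) in repeated atrophy. In recovery it was 0.96 against the own right limbs (adjusted p = 0.25), with the left limb above the right by 0.75, 0.05 and 2.09 in the 3 animals. After rescaling it was 1.70 and 2.20 in the silenced groups, and still called.

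Eef1a1, the ubiquitous elongation factor, rose most in CPM. Control limbs ranged from 387 over a median of 685 to 938 CPM. Atrophy limbs held 3685.5, 1048 and 3913 CPM, recovery limbs 1138, 739 and 2215 CPM, and repeated atrophy limbs 3221, 5976.5 and 5159 CPM. All 6 silenced limbs were above the highest control limb, and so were 2 of the 3 recovery limbs. So too were 2 of 3 sham left and 2 of 3 sham right limbs, which had no TTX. The group mean was 4.13-fold the control mean of 698 ± 187 (SD, n = 9) in atrophy and 6.86-fold in repeated atrophy. The log2 fold change was 1.87 (SE 0.38, adjusted p = 0.0067) in atrophy and 2.78 (SE 0.38, adjusted p = 9.4e-05) in repeated atrophy, or 1.51 and 2.40 after rescaling, all called. In recovery it was 0.87 (95% CI 0.07 to 1.67, adjusted p = 0.16), which did not pass, and against the own right limbs of the recovery animals it was 1.23 (adjusted p = 0.22). Among all rows 20.3% were called higher in atrophy and 28.1% in repeated atrophy, and 4.75% and 16.5% were higher with no overlap.

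Eef1a2, the muscle-specific elongation factor, passed the test in no comparison. Control limbs held 1724, 2323 and 2654 CPM at the lowest, the median and the highest. Atrophy limbs held 1873, 2051 and 2115 CPM, recovery limbs 2294, 2419 and 2278 CPM, and repeated atrophy limbs 1959, 1845 and 2433 CPM. All 9 treated limbs lay within the control range. The log2 fold change was -0.16 (95% CI -0.54 to 0.22, adjusted p = 0.58) in atrophy, 0.06 (95% CI -0.32 to 0.43, adjusted p = 0.89) in recovery and -0.12 (95% CI -0.50 to 0.26, adjusted p = 0.66) in repeated atrophy. Rescaling moved it to -0.53 (95% CI -0.96 to -0.09, adjusted p = 0.11) and -0.50 (95% CI -0.94 to -0.07, adjusted p = 0.085) in the silenced groups. In the ribosomal pair both genes were thus called, in opposite directions, and in the elongation factor pair the ubiquitous gene was called and the muscle-specific gene was not.

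Of the 4 genes, 3 were called in atrophy and the same 3 in repeated atrophy, against 22.6% and 34.3% of all rows, and 0 were called in recovery, against 7.73%. With both limbs of an animal paired (animal as a replicate block), none of the 3 calls in atrophy held: the log2 fold change was -0.83 for Rpl3l (adjusted p = 0.18), 1.41 for Rpl3 (adjusted p = 0.16) and 1.63 for Eef1a1 (adjusted p = 0.17), and 0 of the 14031 rows were called, with 2678 at an unadjusted p below 0.05. In repeated atrophy all 3 held, at -1.80, 2.54 and 2.65 (adjusted p = 0.0035, 0.0036 and 0.0053). Without atrophy animal 2 the atrophy values grew to -1.37, 2.61 and 2.55, and without atrophy animal 1 they were -0.68, 1.84 and 1.56, none of them called.

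**Figure D2:**
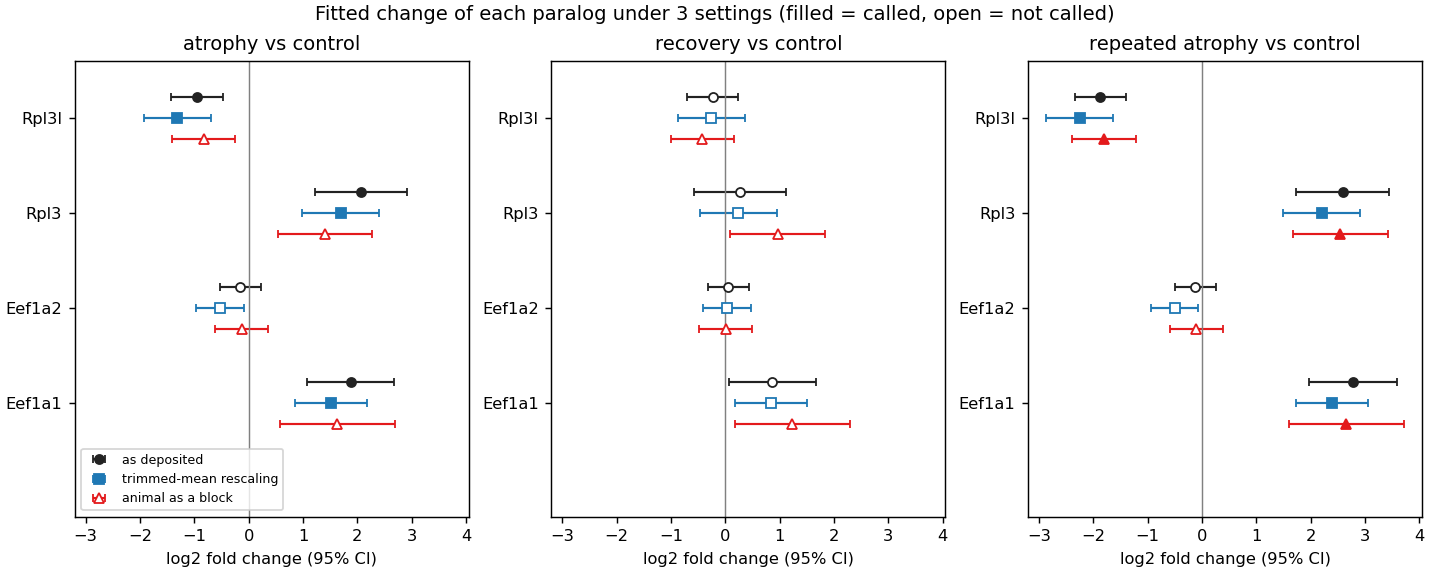
Log2 fold change against control (horizontal axis, with 95% CI) of each paralog in limma for 3 settings, as deposited, rescaled by a trimmed mean, and with animal as a block. Filled symbols were called. Rpl3l lay left of 0 and Rpl3 and Eef1a1 right of 0 in both silenced groups under all 3 settings, and Eef1a2 was called in none.

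Between the treated groups, recovery differed from atrophy for Rpl3 only among the 4, with a log2 fold change of -1.80 (SE 0.50, adjusted p = 0.021), where 17.9% of rows were called. Rpl3l (0.72, adjusted p = 0.077), Eef1a1 (-1.01, adjusted p = 0.14) and Eef1a2 (0.21, adjusted p = 0.53) did not pass. Without atrophy animal 2, Rpl3l (1.13, adjusted p = 0.0042) and Eef1a1 (-1.63, adjusted p = 0.011) passed as well, Eef1a1 also passed without recovery animal 3 (-1.43, adjusted p = 0.045), and Rpl3l passed over rows of at least 10 CPM (adjusted p = 0.049). Repeated atrophy differed from recovery for Rpl3l (-1.64, adjusted p = 0.0012), Rpl3 (2.32, adjusted p = 0.0037) and Eef1a1 (1.91, adjusted p = 0.0072), where 27.2% of rows were called, and not for Eef1a2 (-0.17, adjusted p = 0.59). With the animal as a block none of these 4 calls held: Rpl3 was -0.44 (adjusted p = 0.87) in recovery against atrophy, and Rpl3l, Rpl3 and Eef1a1 were -1.38, 1.58 and 1.42 (adjusted p = 0.12, 0.18 and 0.28) in repeated atrophy against recovery. Repeated against initial atrophy gave -0.92 for Rpl3l (95% CI -1.50 to -0.34, adjusted p = 0.39), 0.52 for Rpl3, 0.90 for Eef1a1 and 0.04 for Eef1a2, none called, and 0.0356% of rows were called there. Without atrophy animal 2 these values were -0.51 for Rpl3l, 0.06 for Rpl3, 0.29 for Eef1a1 and 0.05 for Eef1a2, again none called. The Rpl3 call between recovery and atrophy was also lost without atrophy animal 1 (-1.58), recovery animal 1 (-1.74) or recovery animal 2 (-1.46), and the Eef1a1 call between repeated atrophy and recovery without recovery animal 2 (1.54). The comparisons with control share the 9 right limbs, so their sizes are set side by side and not tested against each other in any other way.

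The ratio within a limb does not depend on how the limbs were scaled against each other, apart from the pseudocount of 1 CPM. For Rpl3l over Rpl3 the log2 ratio was 2.21 ± 0.94 (SD, n = 9) in control limbs, with 0.28, 2.17 and 3.51 as the lowest, median and highest. It was -1.69, 0.94 and -1.66 in the atrophy limbs, 1.98, 2.48 and 0.66 in the recovery limbs and -1.91, -2.52 and -2.32 in the repeated atrophy limbs. The sign of the ratio was thus turned in 2 of 3 atrophy limbs and in all repeated atrophy limbs, and in none of the 12 limbs of the control and recovery groups. The difference from control was -3.01 in atrophy (exact two-sided permutation p = 0.0091, adjusted p = 0.014 over 6 tests), -0.50 in recovery (exact p = 0.46, adjusted p = 0.46) and -4.46 in repeated atrophy (exact p = 0.0045, the smallest that 220 splits allow, adjusted p = 0.014). In atrophy the mean ratio was 8.05-fold lower than in control. Without atrophy animal 1 the difference from control was -2.52 and did not pass (exact permutation test, adjusted p = 0.067), while without animal 2 it was -3.97 (adjusted p = 0.033). Leaving out an animal removes both its limbs, so that fewer splits and coarser p-values are left.

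For Eef1a2 over Eef1a1 the control limbs had a log2 ratio of 1.73 ± 0.45 (SD, n = 9), from 0.92 over a median of 1.68 to 2.54. Atrophy limbs had -0.98, 0.97 and -0.89, recovery limbs 1.01, 1.71 and 0.04, and repeated atrophy limbs -0.72, -1.70 and -1.08. Again the second atrophy limb lay within the control range and the repeated atrophy limbs did not. The difference was -2.03 in atrophy (exact permutation p = 0.0091, adjusted p = 0.014), -0.81 in recovery (exact p = 0.059, adjusted p = 0.071) and -2.90 in repeated atrophy (exact p = 0.0045, adjusted p = 0.014), which is 7.46-fold. The atrophy difference did not pass without atrophy animal 1 (-1.66) or animal 3 (-1.77), both at an adjusted p of 0.067 in the exact permutation test. It was -2.77 without animal 2 (adjusted p = 0.033). These tests too have fewer splits, so a loss in them does not by itself mark the animal left out. Among the treated groups 3 limbs against 3 cannot give an exact p below 0.1, so that no difference could pass. Repeated atrophy minus recovery was -3.96 for Rpl3l over Rpl3 and -2.09 for Eef1a2 over Eef1a1, both with no overlap between limbs and at that smallest p (exact p = 0.1). Recovery minus atrophy was 2.51 and 1.22 (exact p = 0.2 for each), and repeated atrophy minus atrophy was -1.45 (exact p = 0.1) and -0.87 (exact p = 0.4).

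Within animals, the left limb was lower than the right in the Rpl3l ratio of all 9 TTX animals and in the Eef1a2 ratio of 8 of them. In repeated atrophy the left minus right differences were -4.08, -4.58 and -4.37 for Rpl3l over Rpl3 and -2.27, -3.38 and -2.63 for Eef1a2 over Eef1a1, so the 3 animals were close to each other. In atrophy they were -4.23, -0.53 and -1.94, and -2.96, 0.05 and -2.39, with animal 2 near 0 in both. In recovery they were -0.92, -0.39 and -2.85, and -1.03, -0.13 and -2.50, with the largest difference in animal 3, whose right limb had the highest Rpl3l ratio of the 9 control limbs (3.51). In the sham animals they were -0.03, -1.01 and -0.33, and -0.06, -0.65 and -0.09. No test was run on these differences, and an exact one cannot pass 0.05 with 3 animals.

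Levels of different genes are compared per kilobase of the gene model (1336 bases for Rpl3l, 1291 for Rpl3, 2014 for Eef1a2 and 1730 for Eef1a1). In control limbs Eef1a2 was highest at 1124 ± 159 CPM per kb, then Rpl3l at 422 ± 72.9 and Eef1a1 at 403 ± 108, which did not differ beyond their spread, and Rpl3 was lowest at 104 ± 58.7 (SD, n = 9). In repeated atrophy limbs the order was Eef1a1 at 2766 ± 818, Eef1a2 at 1032 ± 155, Rpl3 at 563 ± 60.7 and Rpl3l at 114 ± 12.4 (SD, n = 3). On this scale Rpl3l held 80.1% ± 11.3 of its pair in control limbs, 37.1% ± 24.1 in atrophy, 74.8% ± 12.6 in recovery and 16.9% ± 3.11 in repeated atrophy. Eef1a2 held 73.7% ± 5.98, 41.6% ± 18.3, 61.4% ± 13.5 and 28.0% ± 6.71 of its pair in the same order. As deposited, the sum of the Rpl3 pair was 526.3 ± 44.1 CPM per kb in control and 676 ± 48.3 in repeated atrophy, a smaller change than either member showed. The trimmed-mean rescaling multiplies the repeated atrophy limbs by 0.97, 0.80 and 0.79 and the control limbs by 0.97 to 1.26. The higher Rpl3 sum in repeated atrophy thus depends on the scaling. The sum of the Eef1a pair, also as deposited, went from 1528 ± 206 to 3798 ± 840 CPM per kb, while Eef1a2 stayed within the control range.

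**Figure D3:**
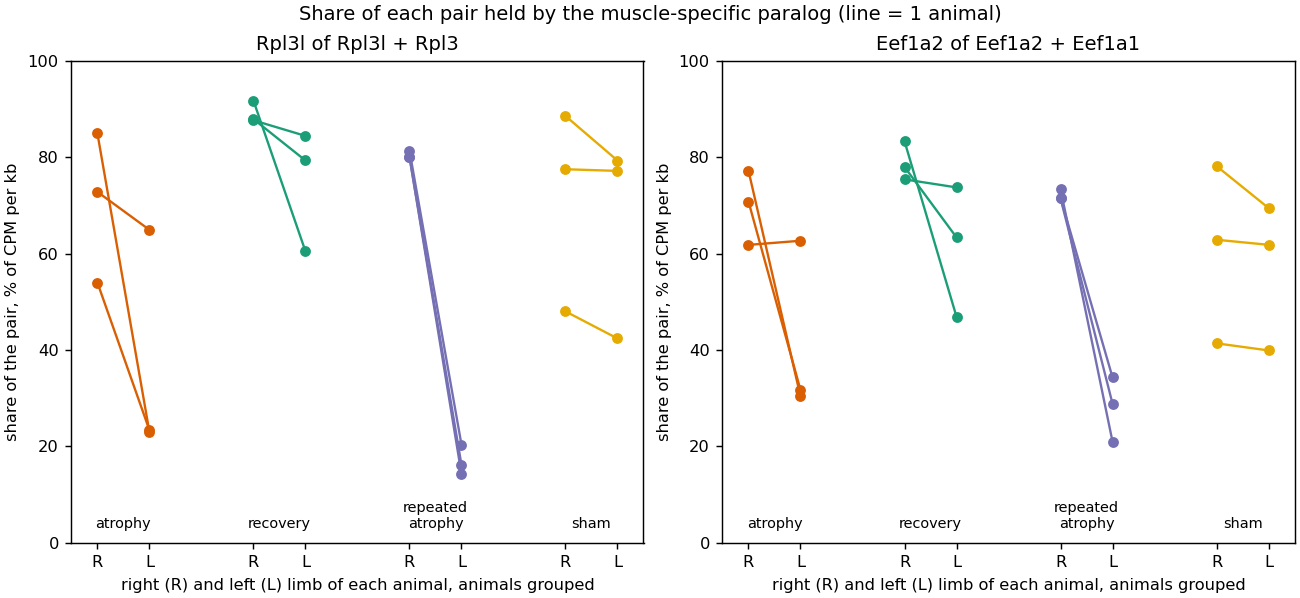
Share of each pair held by the muscle-specific paralog, in percent of CPM per kb, in the right (R) and left (L) limb of each animal. Lines join the limbs of 1 animal. All 3 repeated atrophy animals went from 80.1-81.4% to 14.3-20.4% for Rpl3l, atrophy animal 2 changed little, and sham animal 3 was low in both limbs.

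The right limbs came from 3 time points. The log2 ratio of Rpl3l to Rpl3 was 1.43 ± 1.13 (SD, n = 3) in the right limbs of the atrophy animals, 3.09 ± 0.36 in those of the recovery animals and 2.09 ± 0.07 in those of the repeated atrophy animals (exact permutation test, p = 0.036, adjusted p = 0.19 over 12 further tests). For Eef1a2 over Eef1a1 the means were 1.46, 2.14 and 1.59 (exact p = 0.13, adjusted p = 0.19). Set against their own right limbs, the recovery limbs differed by -1.38 in the Rpl3l ratio and by -1.22 in the Eef1a2 ratio, more than the -0.50 and -0.81 against all 9 right limbs. Over the 9 control limbs both ratios went together, with Pearson r = 0.747 (exact permutation p = 0.028) and Spearman rho = 0.95 (exact permutation p = 3.5e-04), and r was 0.915 without the 2 limbs farthest from the median Rpl3l ratio. This was the only relation across limbs that was tested. The permutation ignores that the 9 limbs come from 3 time points, whose means lie in the same order in both ratios, and 3 limbs a time point are too few for a value within one. Both ratios of a limb come from the same library.

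**Figure D4:**
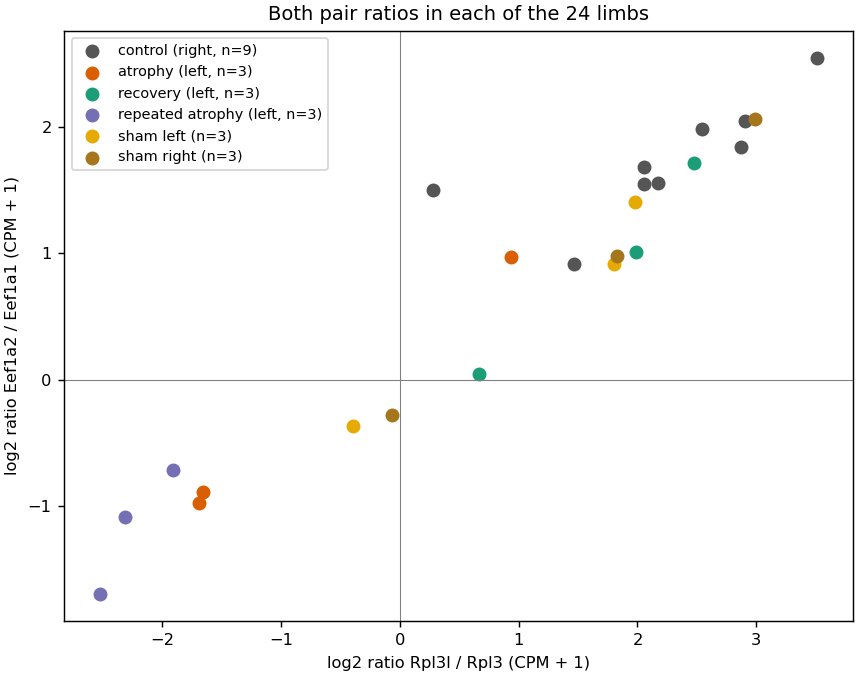
Log2 ratio of Rpl3l to Rpl3 (horizontal) against log2 ratio of Eef1a2 to Eef1a1 (vertical), 1 point for each of the 24 limbs. Repeated atrophy limbs and 2 atrophy limbs lie below 0 on both axes, and so do both limbs of sham animal 3, while the 9 control limbs lie above 0 on both.

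In the sham animals, 1 animal stood apart from the others in all 4 genes. Rpl3l was 559, 505 and 348 CPM in the left and 512, 584 and 344 CPM in the right limbs of the 3 animals. Rpl3 was 159, 127 and 456 CPM in the left and 143, 72.6 and 359.8 CPM in the right limbs. Eef1a1 was 959, 848 and 1749 CPM in the left and 1007, 464 and 1589 CPM in the right limbs, and Eef1a2 was 1810.2, 2248 and 1353 CPM in the left and 1988, 1939 and 1307 CPM in the right limbs. Both limbs of animal 3 were thus lower in Rpl3l and Eef1a2 and higher in Rpl3 and Eef1a1 than any control limb. Both limbs of animal 1 were also above the highest control limb in Eef1a1 (938 CPM). The summed fibre markers of animal 3 are given next. In the left and right limb of animal 3 they were 160415 and 177433 CPM, also below every control limb, and in the other 4 sham limbs 200445 to 241277 CPM. The part of these markers in the paralog values was not tested. No member was called between sham left and control limbs, where 0 of 13822 rows (0%) passed limma and 1904 had an unadjusted p below 0.05 (1188 after rescaling, again with 0 called). Without sham animal 2 the comparison called 118 rows and without animal 3 it called 8, none of them a member. The log2 fold changes were -0.27 for Rpl3l, 0.81 for Rpl3, 0.74 for Eef1a1 (95% CI 0.13 to 1.34, adjusted p = 0.33) and -0.34 for Eef1a2, and without animal 3 they were -0.06, 0.25, 0.42 and -0.15. Between sham left and control limbs the ratio of Eef1a2 to Eef1a1 differed by -1.08 (exact permutation p = 0.014, adjusted p = 0.16) and that of Rpl3l to Rpl3 by -1.07 (exact p = 0.12, adjusted p = 0.19). The sham right limbs differed in the same direction, by -0.81 (exact p = 0.1, adjusted p = 0.19) and -0.62 (exact p = 0.43, adjusted p = 0.43).

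Markers of other cells moved with some of these differences. The summed level of 4 satellite cell markers, Pax7, Myf5, Calcr and Chodl, was 9.58 to 16.8 CPM over the control limbs. It reached 15.7 to 90.9 CPM in atrophy and 40.2 to 71.1 CPM after the second silencing, against 16.5 to 26.8 CPM in recovery. In sham animal 3 it was 73.1 and 56.8 CPM, against 7.52 to 10.9 in the other sham limbs. Of the 4, Myf5, a myogenic factor of activated satellite cells, made up nearly all of the difference between these group means. Its mean was 4.64 CPM in control, 46.3 in atrophy and 43.5 in repeated atrophy, where the 4 together had means of 11.6, 54.3 and 51.0 CPM. The rest of the list changed little between these groups, so the shift was that of Myf5 and not of the list as a whole. The 6 fibroblast markers summed to 202 to 546 CPM in control and 1040 to 1948 in recovery, and were 227 to 535 in atrophy and 327 to 527 in repeated atrophy. The 7 macrophage and leukocyte markers summed to 35.3 to 132 CPM over the control limbs and to 98.1 to 204 CPM after recovery, with 63.9 to 139 CPM in atrophy and 40.4 to 106 CPM after the second silencing. Endothelial, Schwann, mural and adipocyte lists overlapped control in all treated groups, and no marker was at 0 throughout a group. In the sham animals the endothelial sum was 495 and 581 CPM in animal 1 and 293 and 386 CPM in animal 3, above the highest control limb at 259 CPM, and the macrophage and leukocyte sum was 168 and 161 CPM in animal 1. The part of any of these in the paralog values was not tested, and in whole muscle fewer cells of a type and less RNA per cell cannot be told apart.

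The other ribosomal protein genes give the scale for the Rpl3 pair. Of 45 further large subunit genes in the table, 42 were called higher in atrophy, 1 in recovery and 43 in repeated atrophy, and none lower, where 20.3%, 4.4% and 28.1% of all rows were called higher. Their median log2 fold change was 0.79 in atrophy, with a range of 0.13 to 1.63, and 0.94 in repeated atrophy, with a range of 0.38 to 1.53, against 0.22 and 0.20 over all genes. Rpl3 at 2.06 and 2.59 lay above that range and Rpl3l at -0.95 and -1.87 below it. The largest rise was that of Rpl39, a small protein of the exit tunnel, in both groups (1.63, adjusted p = 0.019, and 1.53, adjusted p = 0.014). Of 31 small subunit genes, 30 were called higher in atrophy, 1 in recovery and 30 in repeated atrophy, and none lower, with the largest called rise in Rps25 for atrophy and in Rps27a (1.44) for repeated atrophy. Most of these counts rest on the scaling. After rescaling, 8 of 45 and 10 of 31 were called higher in atrophy (4.73% of all rows) and 22 and 20 in repeated atrophy (13.1% of all rows). In recovery 2 large subunit genes were then called higher and 1 lower, and 1 small subunit gene higher, where 6.02% of all rows were called higher and 6.04% lower. Called higher with the animal as a block were 0 and 0 in atrophy (0% of all rows), and 42 and 30 in repeated atrophy (21.5% of all rows). Among other ribosomal protein paralogs, Rps27l (1.09 in atrophy, adjusted p = 0.0095, and 1.38 in repeated atrophy, adjusted p = 6.3e-04) and Rpl36al (0.98, adjusted p = 0.0063, and 0.88, adjusted p = 0.0020) rose, and Rpl22l1 and Rpl39l did not pass.

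**Figure D5:**
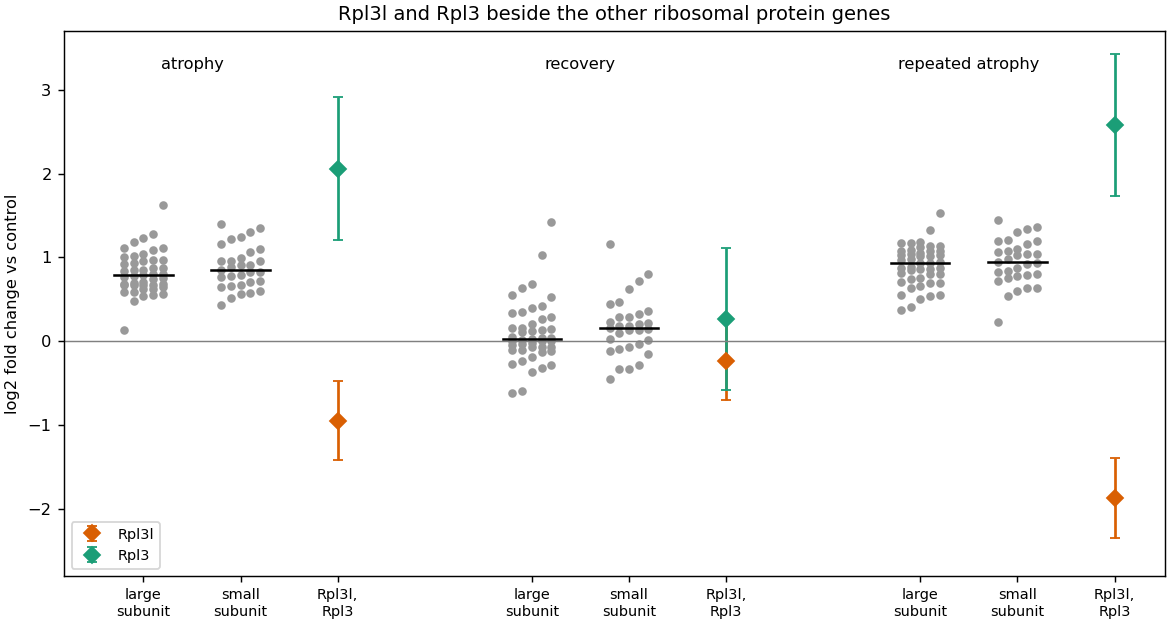
Log2 fold change against control of 45 large subunit and 31 small subunit ribosomal protein genes (grey points, with the median as a line) beside Rpl3l and Rpl3 (diamonds, with 95% CI). In atrophy and repeated atrophy Rpl3 lies above and Rpl3l below all grey points, and in recovery both lie among them.

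The partners of elongation factor 1A moved less than Eef1a1. Of 11 elongation and termination genes, 5 were called higher in atrophy, 0 in recovery and 6 in repeated atrophy, and none lower. Over all rows 20.3%, 4.4% and 28.1% were called higher, and after rescaling 4.73% in atrophy and 13.1% in repeated atrophy. Eef1b2, a subunit of the complex that reloads factor 1A with GTP, rose by 1.11 (adjusted p = 0.0065) and 1.38 (adjusted p = 2.6e-04) on the log2 scale, and its partner Eef1g by 0.59 (adjusted p = 0.014) and 0.71 (adjusted p = 0.0020). Etf1, the release factor that reads stop codons, had the largest called rise in atrophy (1.17, adjusted p = 0.021). Eef2, which moves the ribosome along the mRNA, was not called in either (0.39, adjusted p = 0.37, and 0.35, adjusted p = 0.42). After rescaling 2 of the 11 were called higher in atrophy, 2 were called lower in recovery, and in repeated atrophy 3 were called higher and 1 lower. Over all rows 6.04% were then called lower in recovery and 12.1% in repeated atrophy. With the animal as a block 0 were called higher in atrophy, 0 in recovery and 5 in repeated atrophy, against 0%, 0.0428% and 21.5% of all rows. Of 6 genes for enzymes and chaperones that act on the members, 2 were called higher in atrophy and 3 in repeated atrophy, but 0 and 1 after rescaling. With so few genes these counts lie near the shares over all rows. Eef1akmt1, a lysine methyltransferase of factor 1A, rose by 1.25 (adjusted p = 0.012) and 1.52 (adjusted p = 0.0015), and Zpr1, a chaperone that helps factor 1A to fold, by 0.86 (adjusted p = 0.017) and 0.88 (adjusted p = 0.0075).

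Muscle and general forms of 7 other proteins were set beside the translation pairs. Of 7 adult muscle forms of metabolic enzymes and carriers, 0 were called higher and 3 lower in atrophy, and 5 lower in repeated atrophy, where 2.33% and 6.24% of all rows were called lower. After rescaling these counts were again 3 and 5, against 4.95% and 12.1% of all rows, and with the animal as a block 0 and 4, against 0% and 5.66%. Eno3, the muscle enolase, fell most, with log2 fold changes of -1.70 (adjusted p = 0.0094) and -2.14 (adjusted p = 6.2e-04). Of their 7 general counterparts, 2 were called higher in atrophy, 3 in recovery and 3 in repeated atrophy, where 20.3%, 4.4% and 28.1% of all rows were, so that the counts in the silenced groups lie near the background. After rescaling the counts were 1, 3 and 1, against 4.73%, 6.02% and 13.1% of all rows. With the animal as a block they were 0, 0 and 3, against 0%, 0.0428% and 21.5%. Slc25a5, an adenine nucleotide carrier, had the largest called rise in each (1.06, 0.83 and 1.19). The difference from control in the log2 ratio of muscle to general form ranged over the 7 pairs from -2.08 (Pgam2 to Pgam1) to -0.74 (Ampd1 to Ampd2) in atrophy and from -2.53 (Slc25a4 to Slc25a5) to -0.59 (Ckm to Ckb) in repeated atrophy. Rpl3l to Rpl3, at -3.01 and -4.46, lay beyond both ranges, and Eef1a2 to Eef1a1 lay within the first at -2.03 and beyond the second at -2.90. Of 7 genes known to respond to loss of nerve activity, 6 were called higher in atrophy, 0 in recovery and 7 in repeated atrophy, against 20.3%, 4.4% and 28.1% of all rows, among them Chrna1, a subunit of the acetylcholine receptor (2.78 and 4.49). With the animal as a block 0 of the 7 were called in atrophy and 7 in repeated atrophy, where 0% and 21.5% of all rows were called higher. The study itself reported rises of Chrna1, Chrnd, Chrng and Mymk in these same limbs, so the counts for this list could be foreseen and only describe it.

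As a description over the 24 limbs, with genes of at least 10 CPM on average ranked by Pearson r on the log2 scale, Rpl3l was most like Dhrs7c (r = 0.983), Ldb3, Masp1, Ramp1 and Scn4b (r = 0.961). Rpl3 was most like Eif3l (r = 0.977), Litaf, Tmem38b, Reps1 and Cux1 (r = 0.970), and Eef1a1 most like Spg21 (r = 0.971), Bex1, Rab31, Ctnna1 and Emb (r = 0.963). For Eef1a2 the nearest genes were less alike, among them Abcb8 (r = 0.854), Zfp213, Opa3 and Cluh (r = 0.747). Among the members, Rpl3 and Eef1a1 had r = 0.946, and Rpl3l had r = -0.916 with Rpl3 and r = -0.940 with Eef1a1, whereas Eef1a2 had r of 0.213 with Rpl3l, -0.323 with Rpl3 and -0.219 with Eef1a1. The limbs share treatment groups, animals and library scaling, so these values carry no test.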

How the data were processed

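RNA from the tibialis anterior of 12 aged rats, both limbs of each, was sequenced as directional paired-end mRNA libraries. In Partek Flow, the authors filtered contaminant reads using Bowtie2 2.2.5 and mapped what remained to rn7 (STAR). The annotation, the counting step, its use of strand and its treatment of reads shared with pseudogene copies, which Rpl3 and Eef1a1 are known to have, are not given in the sources used here. The deposited values are CPM: every limb sums to 1000000, although the study names median of ratios. Among the low nonzero values of a limb, between 87.2% and 88.6% were whole reads within 0.02 reads, too few to recover counts. The table had 27 value columns, of which 3 match no sample here and were not used, and 28 exact duplicates among its 14271 rows were dropped.

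Rows above 0 in at least 3 limbs were tested on log2(CPM + 1) with limma 3.58.1 (R 4.3.3, intensity trend) in 1 fit of 18 limbs, with Benjamini-Hochberg adjustment; fold changes are on this scale and understate those of low genes. The sham fit held 12 limbs. Pair ratios were tested with exact permutation tests (Python 3.11.15). Only the limma test was run on simulated counts, drawn independently for each limb with no animal effect, and its outcome is not given here. Left and right limbs of an animal carry its number in the labels and are paired by design; the correlation of their deviations from the group means ran from -0.19 to 0.60 in the TTX animals and from 0.62 to 0.84 in the sham animals, over 10619 rows. The study pooled right limbs without pairing, and so does the test here, with the animal as a block as an alternative. Depth was 18.9 to 30.9 per limb, in units of 1000000 reads, which limits the 4 abundant members little. The other alternatives were pseudocounts of 0.1 and 10, 2 rescalings, no filter and a mean of at least 10 CPM, other control limbs, a fit of the compared groups alone, no trend, rows summed per symbol and leaving out each animal. The members and gene lists were chosen with earlier results of these data known. Named genes are the 4 members, the 5 most correlated genes of each (1 of them is not reported here), the largest called rise and fall of each list and genes whose role a sentence needs. Symbols were matched to the table directly or, for 1 gene, through an older RefSeq name; 1 large and 1 small subunit gene, 3 other ribosomal paralogs and 2 modifiers did not match.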

Additional observations from a re-analysis of the deposited data

Results flagged for a closer look

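Of the members' contrasts between treated groups, 4 passed limma with Benjamini-Hochberg adjustment between the left limbs of 2 treated groups. Rpl3 was lower in recovery than in atrophy, with a log2 fold change of -1.80 (adjusted p = 0.021). Against recovery, repeated atrophy had lower Rpl3l (-1.64, adjusted p = 0.0012), higher Rpl3 (2.32, adjusted p = 0.0037) and higher Eef1a1 (1.91, adjusted p = 0.0072). With the animal as a block, which compares the differences between limbs, none of the 4 passed (Rpl3 in recovery against atrophy was -0.44, adjusted p = 0.87), and 2 of them, Rpl3 in recovery against atrophy and Eef1a1 in repeated atrophy against recovery, did not pass without 1 of the animals. No control limb, the right limb of atrophy animal 3 included, was an outlier in any of the 4 genes or both ratios, by the gap to its nearest neighbour over the group's range (at most 0.444, against a critical value of 0.493).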

How the results depend on the processing

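In repeated atrophy, Rpl3l, Rpl3 and Eef1a1 kept direction and call under all alternatives run, and both ratios under all that had a test. Within animals the ratios are given as values and no test was run on them: -4.34 and -2.76 in repeated atrophy, -2.23 and -1.76 in atrophy. In atrophy, calls were lost against the 3 own right limbs and with the animal pairing (replicate block), both at -0.83 for Rpl3l, 1.63 for Eef1a1 and 1.41 for Rpl3. Leaving out 1 animal gave -1.37 to -0.68 for Rpl3l, 1.56 to 2.55 for Eef1a1 and 1.84 to 2.61 for Rpl3, with the calls lost without atrophy animal 1. The ratio differences then ran from -3.97 to -2.52 for Rpl3l over Rpl3 (lost without atrophy animal 1) and from -2.77 to -1.66 for Eef1a2 over Eef1a1 (lost without atrophy animal 1 or 3). With an animal left out the exact ratio tests have fewer splits and coarser p-values. In recovery, Rpl3 ran from -0.25 (without recovery animal 3, a reversed sign) to 0.54 with 1 animal left out, and was 0.96 against own right limbs and with the block. Eef1a1 there ran from 0.34 to 1.24 and was 1.23. Rpl3l in recovery ran from -0.30 to -0.06 with 1 animal left out, and was -0.42 against own right limbs and with the block. The Rpl3l over Rpl3 ratio ran from -0.80 to 0.19 (reversed without the same animal) and that of Eef1a2 from -1.19 to -0.27, passing at -0.91 without atrophy animal 2. Eef1a2 in repeated against initial atrophy ran from -0.081 to 0.12, reversed without repeated atrophy animal 3 and, at -0.01, without atrophy animal 1.

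Rows called in atrophy (3171) were 1358 with a trimmed mean, 1367 with median of ratios, 0 against own right limbs, 0 with the block and 1 to 4841 with 1 animal left out. In recovery (1084) they were 1692, 1699, 49, 9 and 184 to 1478, and in repeated atrophy (4812) 2573 to 5254 with 1 animal left out. Calls higher and lower in atrophy were 2844 and 327 as deposited and 663 and 695 with a trimmed mean, and in repeated atrophy 3936 and 876 against 1845 and 1697. The cause was not tested. Depth limits the abundant members little, whereas 3 limbs a group limit every comparison.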
